A study of Mus musculus with 6 samples.

Results

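The hypoxia pathway of the polycystic mouse kidney was described through 10 genes, namely the HIF subunits *Hif1a*, *Epas1* and *Arnt*, the prolyl hydroxylases *Egln1* and *Egln3*, the ubiquitin ligase subunit *Vhl* and the target genes *Vegfa*, *Bnip3*, *Adm* and *Ankrd37*. They were found by gene symbol in the deposited table, where they take up 22 of 54721 transcripts and are 10 of 23276 gene symbols. Kidney RNA of 6 mice on postnatal day 22 was sequenced. All 6 mice carried Ksp/Cre, a Cre recombinase active in renal tubules, and *Pkd1* F/RC, that is a floxed allele over the hypomorphic RC allele, so that Cre removes the floxed allele in tubule cells and the RC allele is left. In 3 of them this was the whole genotype (*Pkd1* F/RC SKO), and in the other 3, named *Pkd1* F/RC DKO, both copies of the miR-17∼92 cluster were floxed as well (F/F). Kidneys without a *Pkd1* mutation were not analysed here.

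The values used are the authors' mean abundances, given for each transcript as log2 CPM over the libraries of both genotypes together. CPM values are read counts of a transcript scaled to the same total count in every library. Values of single kidneys were not analysed here. The depth of a library is therefore unknown, no level has an SD, and no order of levels was tested. The remaining columns are the authors' own comparison of DKO with SKO and were not used, so nothing is said here of a difference between the genotypes. RNA of whole kidneys was measured, in which fewer cells of a type and less RNA per cell cannot be told apart.

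In oxygenated cells the prolyl hydroxylases (the Egln or PHD enzymes) hydroxylate the HIF alpha subunits, the product of *Vhl* binds the hydroxylated protein, and its ubiquitin ligase marks it for degradation. When oxygen falls, the alpha subunit escapes, pairs with the *Arnt* product and binds a short core sequence in the DNA of target genes, the hypoxia response element. HIF activity is thus set largely at the protein level, and RNA levels of its subunits do not measure it. In the kidney, *Hif1a* is known mainly from tubule epithelium, and *Epas1*, which encodes HIF-2 alpha, from endothelial and interstitial cells, where it drives erythropoietin.

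The RNA had the marker genes of kidney. *Lrp2* of the proximal tubule stood at 567 CPM, *Umod* of the thick ascending limb at 1022 CPM and *Aqp2* of the collecting duct at 77.7 CPM, and the 15 markers of nephron segments, podocytes and endothelium lay between 13.0 and 1030.2 CPM. *Ptprc*, carried by leukocytes, had 8.20 CPM, while *Cd3e* of T cells had 0.160 CPM. Of 5 markers of other tissues, *Myh6*, *Ins2* and *Sftpc* were under 1 CPM, *Krt14* had 1.76 CPM and *Alb* 13.4 CPM. *Pkd1* was listed at 31.8 CPM and *Mir17hg*, the host transcript of miR-17∼92, at 4.21 CPM. A mean over both genotypes does not check either deletion.

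All 10 genes were present at 1 CPM or more, as were 13001 of all 23276 gene symbols (55.9%). For each gene the entry with the highest mean is used. Positions given in brackets for a gene span the whole annotated gene, which can be longer than the entry named. Of the 10 genes, 6 had 10 CPM or more, against 32.2% of all gene symbols and 57.7% of the genes with at least 1 CPM. These were, from the highest down, *Hif1a*, *Epas1*, *Vegfa*, *Bnip3*, *Egln1* and *Arnt*, followed under 10 CPM by *Egln3*, *Vhl*, *Adm* and *Ankrd37*. Longer transcripts yield more reads, so levels of different genes are set against each other as CPM per kilobase of transcript, and plain CPM gives a gene's own level. The length was that of the gene's longest RefSeq transcript matched in the GENCODE annotation of GRCm38, the assembly of mm10. On that scale the median of 22662 genes was 1.01 CPM per kilobase, and over genes of at least 1 CPM it was 4.13.

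**Figure D1:**
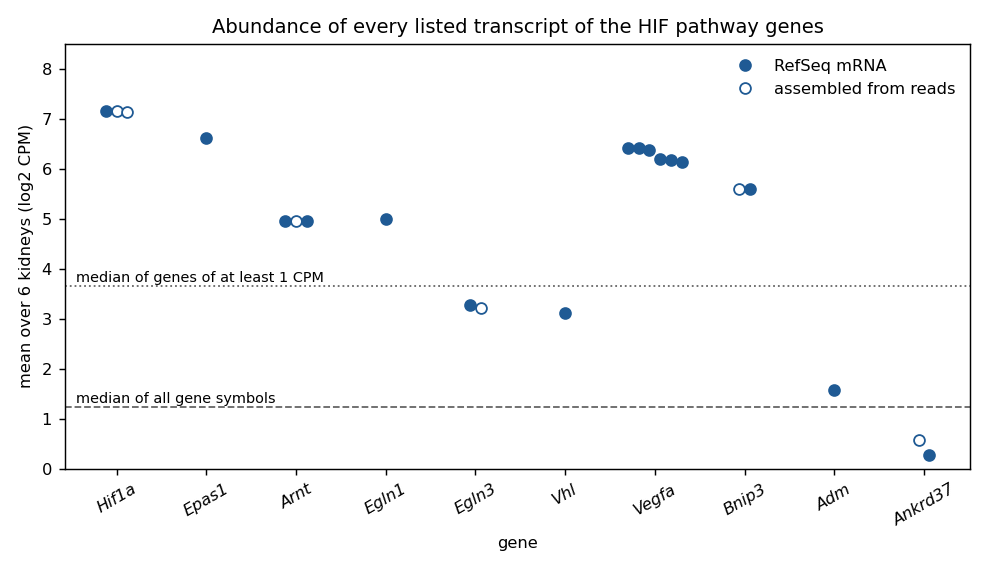
Authors' mean log2 CPM over the 6 kidneys for each of the 22 listed transcripts, by gene; filled points are RefSeq mRNAs, open points were assembled from the reads, and the lines mark the median of all gene symbols (2.36 CPM) and of genes with at least 1 CPM (12.6 CPM). *Hif1a* is at the top with 143 CPM, and *Ankrd37* alone lies below the lower line.

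*Hif1a* (NM_010431, chr12:73901375-73947530, forward strand) encodes HIF-1 alpha, an oxygen-labile subunit. By its highest entry *Hif1a* led the 10 genes, whereas with all entries of a gene summed *Vegfa*, with 6 entries, came to 472 CPM and *Hif1a*, with 3, to 426 CPM. Such a sum may repeat what the entries share and grow with their number. Whether a read on several entries was counted for each is not stated, so no order of the genes was drawn from sums. The transcript of 15 exons stood at 143 CPM (7.15 on the log2 scale), above 98.6% of gene symbols. The assembled transcripts of the gene had 142 and 141 CPM, so all 3 entries lay within 0.010 on the log2 scale.

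*Epas1* (NM_010137, chr17:86753700-86833410, forward strand) encodes HIF-2 alpha, the other main oxygen-labile subunit. Its single entry of 16 exons stood at 98.5 CPM, above 97.4% of gene symbols. Per kilobase, *Hif1a* had 30.2 and *Epas1* 17.9 CPM, a ratio of 1.69. On the per-kilobase scale 96.1% of genes lay below *Hif1a* and 93.1% below *Epas1*.

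*Arnt* (chr3:95434388-95497240, forward strand) encodes HIF-1 beta, the stable partner of both alpha subunits. Its 3 entries stood at 31.2, 31.1 and 31.1 CPM, above 87.3% of gene symbols for the highest. The partner was less abundant than either alpha subunit. Per kilobase it had 7.20 CPM, against which *Hif1a* was 4.19 times and *Epas1* 2.48 times as high. Its highest entry is matched to a shorter transcript of 2699 nucleotides, over which the level was 11.5 CPM per kilobase, still under both alpha subunits. That value may be too high, as NM_009709, matched to 4325 nucleotides, had nearly the same CPM. The RefSeq forms NM_001037737 and NM_009709 differ by 15 codons, and their levels by 0.0113 CPM, or 0.0363% of the first. Of related subunits outside the 10 genes, *Arnt2* had 2.97 and *Hif3a* 0.733 CPM per kilobase. Over the length of its own highest entry *Hif3a* had 2.13 CPM per kilobase, so its place against the median gene depends on the length taken.

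*Egln1* (NM_053207, chr8:124908587-124949324, reverse strand) encodes PHD2, the main prolyl hydroxylase acting on HIF-1 alpha under normal oxygen. It had 32.0 CPM, above 87.7% of gene symbols, and 8.90 CPM per kilobase. *Egln3* (NM_028133, chr12:54178981-54203860, reverse strand) encodes PHD3, whose gene is itself a HIF target. Its entries stood at 9.64 and 9.36 CPM, above 67.1% of gene symbols for the higher. Per kilobase *Egln3* had 3.62 CPM, and *Egln1* was 2.46 times as high. *Egln2*, which encodes PHD1, had 10.8 CPM per kilobase, 1.22 times *Egln1* and 2.99 times *Egln3*. *Egln3* therefore had the lowest level of the 3 hydroxylase genes.

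*Vhl* (NM_009507, chr6:113623959-113631633, forward strand), whose product recognises hydroxylated HIF alpha, had 8.74 CPM over 3 exons, above 65.5% of gene symbols. Per kilobase it stood at 3.13 CPM, and *Egln1* was 2.84 times as high. The genes for the other parts of its ligase were all above it on that scale. *Cul2*, the scaffold, had 4.61, *Tceb1* (elongin C) 11.3, *Rbx1*, the RING subunit, 14.6 and *Tceb2* (elongin B) 53.4 CPM per kilobase. *Hif1an*, which encodes the asparagine hydroxylase FIH, had 4.46. *Vhl* was the lowest of the 9 genes of oxygen sensing and HIF degradation examined, and the length of *Tceb2*, 537 nucleotides, is short for reads of 51 bp.

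*Vegfa* (chr17:46016993-46032369, reverse strand) encodes the main endothelial growth factor of the kidney, made by podocytes and tubule cells. Its 6 RefSeq entries stood at 86.1, 85.4 and 83.3 CPM for NM_001025250, NM_009505 and NM_001025257, and at 73.6, 72.9 and 70.8 CPM for NM_001110266, NM_001110267 and NM_001110268. The first 3 were all above the last 3, and the whole spread was 0.28 on the log2 scale. Taken in that order, each of the first 3 exceeded its counterpart by 12.5 CPM. The level per kilobase was 25.0 CPM over 3451 nucleotides, the length of NM_009505, and 43.7 CPM over the 1973 nucleotides matched to the highest entry itself. *Vegfa* thus stood below *Hif1a* (30.2) and *Bnip3* (27.8) with the first length and above both with the second. The second length is doubtful, as NM_001025257, matched to only 975 nucleotides, had 83.3 CPM, close to the 85.4 CPM of NM_009505. The matched lengths of these entries do not follow their levels, so less weight can be put on the order with the second length.

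The steps within each set of 3 *Vegfa* entries were equal too. NM_001025250, NM_009505 and NM_001025257 have coding regions of 392, 368 and 324 codons in GENCODE, a series of splice forms that differ by exons for heparin binding. The form with 24 more codons had 0.754 CPM more than the next, and the counterparts differed by 0.755 CPM. The next step, of 44 codons, came with 2.09 CPM in both sets. These differences make up at most 3.87% of an entry from the longest to the shortest form of a set. The entries of the gene thus differ by small shared amounts on a large common amount. They were not read as separate levels of the splice forms, and their sum is given only as an alternative.

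Such closeness was not particular to these genes. Among 8470 genes of at least 1 CPM with several entries, the median spread between the highest and lowest was 0.16 on the log2 scale. *Hif1a* (0.010), *Arnt* (0.00052), *Bnip3* (0.013) and *Egln3* (0.043) were below it, and *Vegfa* and *Ankrd37*, both at 0.28, were above it.

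*Bnip3* encodes a mitochondrial BH3-like protein that promotes mitophagy (chr7:138890836-138909519, reverse strand). Its assembled entry had 48.8 CPM and its RefSeq entry, NM_009760, 48.3 CPM. It was above 92.6% of gene symbols by CPM and above 95.7% of genes per kilobase. With 27.8 CPM per kilobase it was at 0.921 of the level of *Hif1a*. Its relative *Bnip3l* had 22.4 CPM per kilobase, 0.808 of *Bnip3*. The annotation places the processed pseudogene *Gm18258* and the antisense gene *Gm45507* within the *Bnip3* locus, both on the opposite strand. On the same strand, the protein-coding *Gm49321* overlaps *Hif1a*, *AC096777.1* overlaps *Epas1* and the processed pseudogene *Gm42672* overlaps *Arnt*. None of these overlapping genes is among the gene symbols with a level, and their part in the levels was not tested.

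*Adm* and *Ankrd37* had the lowest levels of the 10 genes. *Adm* (NM_009627, chr7:110627661-110629820, forward strand) encodes adrenomedullin, a vasodilator peptide, and had 3.00 CPM, above 52.1% of gene symbols. Per kilobase it had 2.16 CPM, and *Vegfa*, with 25.0 over its longer length, was 11.6 times as high. The genes for its receptor were more abundant per kilobase, with 5.12 CPM for *Calcrl*, 5.45 for *Ramp2* and 4.48 for *Ramp3*.

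*Ankrd37* (chr8:45996902-46005707, reverse strand) encodes a small ankyrin repeat protein and is widely used as a marker of hypoxia. Its assembled entry had 1.48 CPM and its RefSeq entry, NM_001039562, 1.22 CPM. By the highest entry it was the one gene of the 10 below the median gene by CPM, with 46.5% of gene symbols lower. Per kilobase it stood at 1.60 CPM, with 55.5% of genes lower. It overlaps *Ufsp2* (19.6 CPM) and *Lrp2bp* (0.289 CPM) on the opposite strand. The libraries were strand-specific, but whether strand was used in counting is not given in the sources used here, so the part of reads from *Ufsp2* in the level of *Ankrd37* was not tested.

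**Figure D2:**
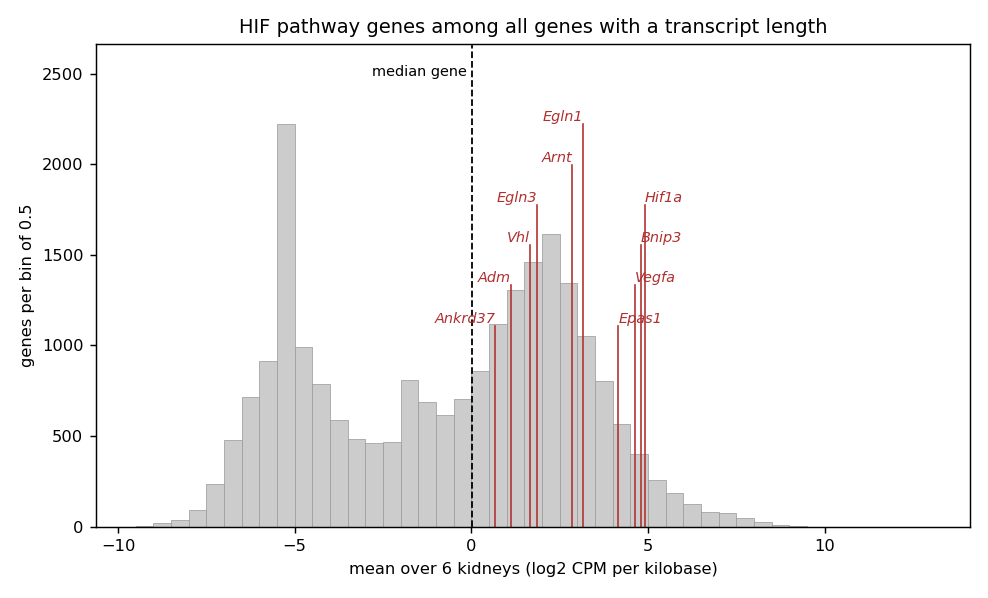
Number of genes (vertical axis) in bins of 0.5 of the log2 CPM per kilobase (horizontal axis), for 22662 genes, with the 10 HIF pathway genes as red lines of arbitrary height and the median gene (1.01 CPM per kilobase) as a dashed line. All 10 lie to the right of the median, from *Ankrd37* at 1.60 to *Hif1a* at 30.2 CPM per kilobase.

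The 50 other genes of the pathway that were examined had a median of 5.42 CPM per kilobase, against 8.05 for the 10 genes. Of the 50, 41 were above the median gene per kilobase. So were 11331 of all 22662 genes with a length, and 11200 of the 12853 with at least 1 CPM. At least 1 CPM was reached by 46 of the 50, against 55.9% of all gene symbols. The 4 under 1 CPM were *Epo* (0.349), *Cox4i2* (0.492), *Pgf* (0.535) and *Car9* (0.995). *Epo* encodes erythropoietin, *Cox4i2* an oxygen-responsive isoform of a cytochrome oxidase subunit, *Pgf* placental growth factor and *Car9* a carbonic anhydrase of the cell surface. *Epo* and *Car9* are well-known HIF targets, and with 0.489 and 0.492 CPM per kilobase both were below the median gene. The lowest value in the table, 0.0263 CPM, is held by 4617 transcripts.

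At the other end stood *Ndrg1*, a stress-responsive HIF target, with 195.0 CPM per kilobase and *Gapdh* with 186. All 11 genes of glucose uptake and glycolysis passed 1 CPM, as did 55.9% of all gene symbols. Of the 11, 8 were above the median gene per kilobase, as were 11200 of 12853 genes with at least 1 CPM and a length. *Slc2a1*, the glucose transporter GLUT1, had 12.5 CPM per kilobase and *Pdk1*, which restrains pyruvate entry into mitochondria, 6.82. The 3 below the median gene were *Pfkfb4*, a regulator of glycolysis, with 0.853, the hexokinase gene *Hk2* with 0.744 and *Slc16a3*, a lactate exporter, with 0.412 CPM per kilobase. Glycolytic enzymes are made in most cells, and their level is no measure of HIF activity.

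Among vascular genes, *Vegfa* was the highest per kilobase of 14. With its longer length it was 2.29 times *Vegfb* and 5.48 times its receptor gene *Kdr*, which had 4.56 CPM per kilobase. *Nrp1*, a co-receptor, followed *Vegfa* with 17.3, and *Flt1*, the decoy receptor, had 4.01 CPM per kilobase. *Vegfc* had 0.689 and *Pgf* 0.338 CPM per kilobase, both below the median gene. The coactivator genes *Ep300* and *Crebbp* had 5.38 and 2.80 CPM per kilobase. *Cited2*, whose product competes with HIF for p300, had 19.0.

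**Figure D3:**
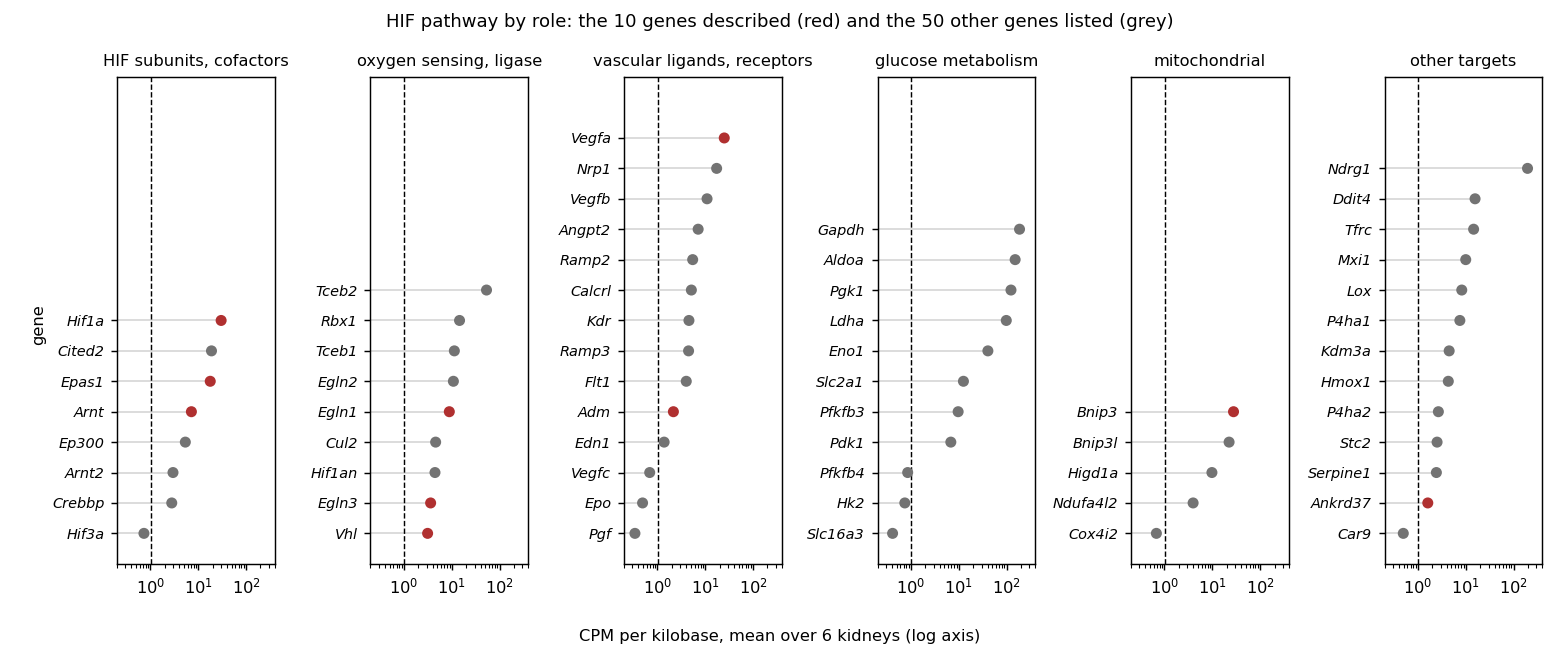
CPM per kilobase (horizontal log axis, authors' mean over the 6 kidneys) of the 10 genes described (red) and the 50 other genes (grey), 1 point a gene, in panels by role; the dashed line is the median gene at 1.01. *Vegfa* and *Bnip3* head their panels, and *Vhl* is at the foot of its panel.

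The promoters of the genes were searched for the core of the hypoxia response element. The core was spelled ACGTG, sought on both strands, in windows from 250 bases before to 50 bases after the transcription start (RefSeq, GRCm38.p6). Windows were found for 9 of the genes, 2 of them for *Vegfa*. No window was found for *Epas1*, so its promoter was not searched. The annotated *Hif1a* gene begins at 73901375, upstream of its window at 73907617-73907916, and that upstream start was not searched. Nor was that of *Ankrd37*, whose gene on the reverse strand reaches 46005707, upstream of its window at 45999801-46000100. The annotated *Egln1* gene reaches 124949324, so the core shown for it below lies within the annotated gene. The core was present in 6 of these 10 windows, in those of *Hif1a*, *Egln1*, *Egln3*, *Vegfa* (the downstream start), *Bnip3* and *Ankrd37*. It was present in 19.6% of 32851 promoters of the same length and in 24.7% of 12420 promoters of genes with at least 1 CPM. The matches are printed here with the core in capitals, 1 for each of these promoters and both for *Ankrd37*, because these are the letters that a HIF dimer can recognise. For *Vegfa* the core lies on the other strand and reads CACGT.
Hif1a, chr12:73907725-73907745, forward strand: agacaagcACGTGagcggggc
Egln1, chr8:124949310-124949330, reverse strand: cgtggtgtACGTGcagcgcgc
Egln3, chr12:54204091-54204111, reverse strand: catctcagACGTGagatccag
Vegfa, chr17:46025362-46025382, reverse strand: tgcgtgccCACGTcagagagc
Bnip3, chr7:138909601-138909621, reverse strand: cgcgccgcACGTGccacacgc
Ankrd37, upstream match, chr8:46000079-46000099, reverse strand: ccagcagtACGTGcctagctc
Ankrd37, match at the start, chr8:45999844-45999864, reverse strand: gtttgggtACGTGaggccgca

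The matches lay 134 bases before the start in *Hif1a*, 68 in *Egln1*, 229 in *Egln3*, 211 in *Vegfa* and 107 in *Bnip3*. Those of *Ankrd37* lay 241 and 6 bases before it. In *Hif1a* and *Bnip3* the core is part of the palindrome CACGTG and so is read on both strands at the same place. *Hif1a* had a further match 70 bases before the start. The second spelling of the core, GCGTG, was also in 6 windows, those of *Arnt*, *Egln1*, *Vegfa* (the downstream start), *Bnip3*, *Adm* and *Ankrd37*, against 32.4% of all promoters and 49.3% of those of genes with at least 1 CPM. The window of *Vhl* and the upstream window of *Vegfa* held neither spelling. Of the 50 other pathway genes, 38 had windows, 52 in all. ACGTG was in 22 of these windows, from 18 genes, and GCGTG in 30, from 25 genes. The short cores occur in many promoters and in GC-rich sequence (the window of *Egln1* is 86.0% G and C), and a match does not show binding.

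**Figure D4:**
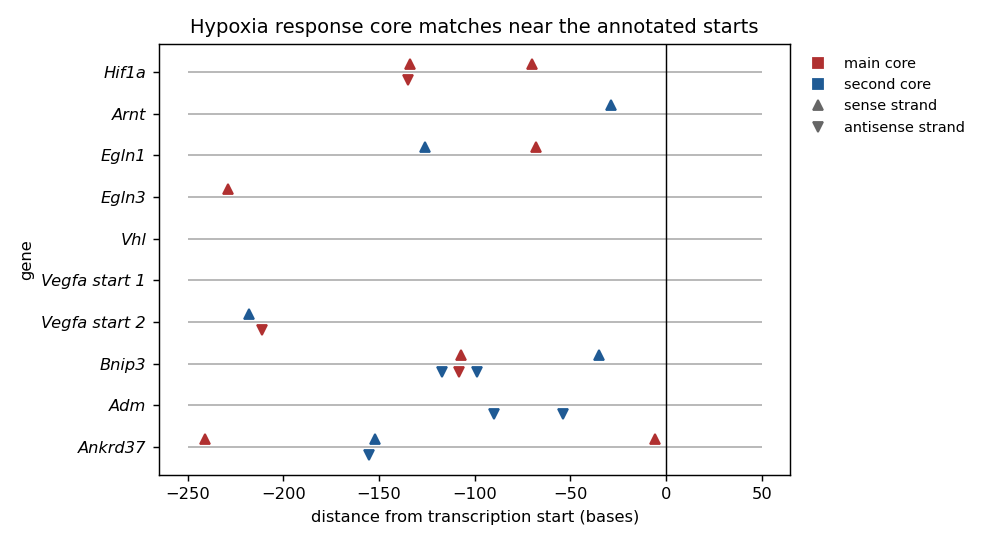
Matches to the hypoxia response core by distance in bases from the annotated start (horizontal axis) in 10 promoter windows of 9 genes (vertical axis); red marks the main core, blue the second spelling, and the direction of the triangle the strand. The paired red triangles of *Hif1a* and *Bnip3* are each 1 palindrome read on both strands, and *Vhl* and the upstream start of *Vegfa* have no match.

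Because miR-17∼92 is the cluster floxed in the DKO mice, the 3′-UTRs of the 10 genes were read for seed matches to its miRNAs. A miRNA binds its target RNA mainly through its seed, bases 2 to 8. The cluster lies on chr14 of GRCm38 and makes 6 mature guide miRNAs, shown with the seed in capitals (RefSeq, 5′ to 3′), because the sites below are the complement of these letters.
miR-17-5p: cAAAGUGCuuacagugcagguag
miR-20a-5p: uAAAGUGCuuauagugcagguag
miR-18a-5p: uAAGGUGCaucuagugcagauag
miR-19a-3p: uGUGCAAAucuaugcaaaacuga
miR-19b-3p: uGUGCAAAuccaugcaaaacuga
miR-92a-3p: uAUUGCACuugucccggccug

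They share 4 seeds, as miR-17-5p and miR-20a-5p have the same one and miR-19a-3p and miR-19b-3p another. The 3′-UTRs, from GENCODE, were 223 to 2308 nucleotides long, with a median of 850 over 19029 genes. At least 1 match to a seed was found in 8 of the 10 genes, and 13 in all, while 27.2% of all 3′-UTRs held a match to any of the 4 seeds. Most of the 10 UTRs are longer than the median, and among UTRs of like length the share ran from 5.72% (for *Ankrd37*) to 49.3% (for *Epas1*). The exceptions were *Arnt*, in 1847 nucleotides, and *Ankrd37*, in 223.

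Matches to the seed of miR-17-5p and miR-20a-5p, GCACTTT, were found once each in *Hif1a*, *Epas1*, *Egln3*, *Vhl* and *Vegfa*, that is in 5 of 10 genes. The seed match occurs in 11.4% of all 3′-UTRs, and in 14.9% to 20.5% of those of like length (0.8 to 1.25 times) to these 5. They are shown with the match in capitals and up to 8 bases on each side, because they match the seed of miR-17-5p and miR-20a-5p. Whether miRNAs from outside the floxed cluster have the same seed was not examined.
Hif1a, bases 975 to 981 of the 3′-UTR, chr12:73946670-73946692, forward strand: ggttttatGCACTTTgtcgctat
Epas1, bases 1774 to 1780, chr17:86832868-86832890, forward strand: ttccaagaGCACTTTgtaactca
Egln3, bases 292 to 298, chr12:54180318-54180340, reverse strand: tcttattcGCACTTTatgtatgc
Vhl, bases 562 to 568, chr6:113630123-113630145, forward strand: acgtcccaGCACTTTctctctgt
Vegfa, bases 162 to 168, chr17:46018682-46018704, reverse strand: ttcgaggaGCACTTTgggtccgg

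Of these 5 sites, that of *Egln3* is followed by an A, the stronger form of site. The other seeds matched fewer genes, and were found in 7.58% (miR-18a), 10.4% (miR-19) and 6.17% (miR-92a) of all 3′-UTRs. The miR-18a seed match GCACCTT was found in *Hif1a*, *Epas1* and *Bnip3*, and in *Epas1* it begins at base 1805, close to the miR-17 match. The miR-19 match TTTGCAC was found at bases 1199 and 1983 in *Egln1*, the former followed by an A, and at base 91 in *Bnip3*. The miR-92a match GTGCAAT was found at base 8 in *Egln3* and at base 289 in *Adm*. These matches are a description of the letters, and neither the binding of a miRNA nor a change of these RNAs in DKO kidneys was examined.

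**Figure D5:**
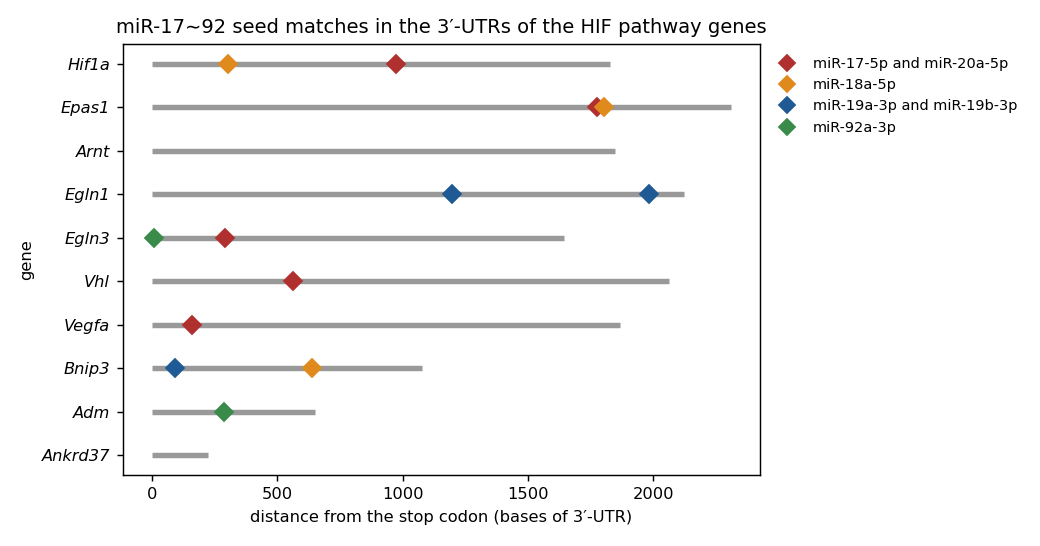
3′-UTRs of the 10 genes as grey bars of true length (horizontal axis, bases after the stop codon), with the first base of each of the 13 seed matches as a diamond coloured by the miRNAs that share the seed. The miR-17-5p and miR-20a-5p match is in 5 genes, and *Arnt* and *Ankrd37* have no diamond.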

How the data were processed

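Stranded total RNA libraries of 6 kidneys were sequenced from 1 end for 51 bp. Trimmed reads were mapped by the authors to mm10 with the iGenomes annotation, and those of mapping quality below 10 were dropped. The authors' processing notes in GEO name TopHat2 2.0.12, Cufflinks, featureCounts, Subread 1.4.6 and edgeR 3.2.4, with neither role nor order. The deposited log2 values used are the authors' edgeR mean log2 CPM for each transcript over the libraries of both genotypes. The table's 4 other columns hold the authors' own comparison (log2 fold change, likelihood ratio statistic, p-value and adjusted p-value) and were not used. The planned quasi-likelihood test of counts was not possible without values of single kidneys, so no test was made and precision cannot be given. Whether a read on several transcripts was counted for each is not stated in the sources used here. Whether such counting shaped the levels of *Vegfa* and *Arnt* was not tested. The *Vegfa* entries differed by equal steps, 12.5 CPM between the sets, and the *Arnt* entries lay within 0.00052 on the log2 scale. Entries of a gene were therefore not summed except as an alternative.

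The members and gene lists were chosen with earlier results of these data known. Named are the 10 genes, the ends of each list of other pathway genes, their 3 highest and 3 lowest, and the leading markers. The subunits, ligands, receptors and targets compared with a member and the sequence features shown were chosen after values were seen. Levels were divided by the length of the longest RefSeq-matched transcript in GENCODE M21, which was had for 22662 of 23276 gene symbols (97.4%), also where the highest entry was assembled or shorter. Promoters and miRNAs are from RefSeq and 3′-UTRs from GENCODE. Motif and coordinate searches were tested on simulated data. Python 3.11.15, numpy 2.4.6 and pandas 2.3.3 were used. No column of an unmatched sample was used.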

Additional observations from a re-analysis of the deposited data

How the results depend on the processing

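The number of the 10 genes at 1 CPM or more was 10 with the highest entry, the sum or the median of a gene's entries, and became 6 when the minimum was raised to 10 CPM, which *Egln3*, *Vhl*, *Adm* and *Ankrd37* did not reach. The number above the median gene was 9 by CPM among all gene symbols, 8 with summed entries, 10 per kilobase and 6 among genes of at least 1 CPM, by CPM or per kilobase. Summed entries put *Adm* below the median gene as well, with 49.0% of genes lower. With RefSeq mRNA entries only, 47.1% of genes lay below *Adm* and 39.7% below *Ankrd37*. Of the 50 other pathway genes, 46 passed 1 CPM, and 47 with summed entries. Per kilobase of the highest entry itself *Vegfa* came to 43.7 CPM and passed *Hif1a*. The matched lengths of the *Vegfa* entries do not follow their levels, however, so this order is doubtful. With summed entries *Vegfa*, with 6 entries, also passed *Hif1a*, with 3. Such sums may repeat shared amounts, which was not tested, so no order was drawn from them. The length of the highest entry itself, the longest protein-coding transcript and the restriction to genes of at least 1 CPM were added after the data were seen. Across the alternatives the share of genes below a member moved by 2.75 percentage points for *Hif1a* and by up to 15.7 for *Ankrd37*. DESeq2's test, a filter on counts and leaving out each replicate need values of single kidneys and were not run. No paired analysis was possible because the result comes from no test and the labels pair no mice. Depth per library is unknown, and low values such as those of *Epo* and *Ankrd37* are the least certain.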
